A study of Mus musculus with 4 samples.

Results

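NR2F1 signal over the 4 mouse Hox clusters was described by paralog position, from the anterior to the posterior groups, in single-cell CUT&Tag libraries of embryonic hindbrain cells. The members were 38 Hox genes, 10 in HoxA, 10 in HoxB, 9 in HoxC and 9 in HoxD. Called peaks sharing 1 bp or more across the 4 libraries were joined into merged regions, and a region was taken when it touched a fixed window of the mm10 build, of 120 kb around HoxA on chromosome 6, 185 kb around HoxB on chromosome 11, 125 kb around HoxC on chromosome 15 and 110 kb around HoxD on chromosome 2. Each region was assigned by its midpoint to the nearest Hox transcription start, and 200 of the 263639 merged regions of the series belonged to a member. HoxA held 28 of them, HoxB 63, HoxC 67 and HoxD 42. The choice used positions only and no cut site count. Paralog groups 1 to 4 were called anterior (11 genes), groups 5 to 8 central (11 genes) and groups 9 to 13 posterior (16 genes).

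The series compared NR2F1 binding in cells of rhombomere 4 (r4) between WT embryos and embryos with a single-nucleotide variant in cRE2, a regulatory element near Gata2. Cells were sorted at embryonic day 10.5 from WT embryos, with 26 embryos pooled in each of 2 libraries, and from Fam5snv/snv embryos homozygous for the knocked-in variant, with 8 embryos pooled in replicate 1 and 16 in replicate 2. Both genotypes carried Isl1MN-GFP, a reporter of motor neurons, and GFP-negative cells were admitted at the end of each sort, so the barcodes can include other cell types of r4. In CUT&Tag, Tn5 transposase is tethered to the antibody-bound protein and cuts nearby DNA, and the values were cut sites in called peaks. No library with a control antibody was analysed here, so the background of the assay over these genes is unknown.

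Hox genes encode homeodomain transcription factors that give cells their position along the body axis. Within a cluster the genes stand in the order of their paralog groups, and the genes at the anterior end are expressed in the hindbrain while those at the posterior end act in the trunk and limbs. In r4, Hoxb1 sets segment identity and maintains its own expression together with PBX proteins, Hoxb2 lies downstream of it, and Hoxa2 patterns rhombomere 2 and the cells behind it. NR2F1 (COUP-TF1) is an orphan nuclear receptor that binds repeats of the half-site AGGTCA and acts in the nervous system as a repressor or an activator.

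The promoters of Hoxa2, Hoxb1 and Hoxd10 are shown because a peak covered these starts in every library. The sequences are from RefSeq (GRCm38.p6, the assembly of mm10), 250 bases before the RefSeq start to 50 after it, written 5′ to 3′ along the gene, and capitals mark matches to AGGTCA or to TGATNNAT, the letters of a site bound jointly by HOX and PBX proteins on either strand (TGACCT and ATCAATCA are minus-strand matches). The windows are chr6:52164782-52165081 (minus strand) for Hoxa2, chr11:96365508-96365807 (plus strand) for Hoxb1 and chr2:74691641-74691940 (plus strand) for Hoxd10.
Hoxa2 promoter: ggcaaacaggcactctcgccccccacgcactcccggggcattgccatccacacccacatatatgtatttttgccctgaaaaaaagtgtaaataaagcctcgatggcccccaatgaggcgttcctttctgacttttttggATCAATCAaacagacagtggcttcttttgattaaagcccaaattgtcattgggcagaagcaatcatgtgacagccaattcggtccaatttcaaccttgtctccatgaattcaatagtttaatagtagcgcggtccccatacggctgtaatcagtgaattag
Hoxb1 promoter: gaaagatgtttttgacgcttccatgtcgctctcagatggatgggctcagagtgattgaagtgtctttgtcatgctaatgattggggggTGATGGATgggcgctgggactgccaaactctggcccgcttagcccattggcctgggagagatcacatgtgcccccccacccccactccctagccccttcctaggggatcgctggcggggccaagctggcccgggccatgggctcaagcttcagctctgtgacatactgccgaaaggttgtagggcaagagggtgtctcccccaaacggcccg
Hoxd10 promoter: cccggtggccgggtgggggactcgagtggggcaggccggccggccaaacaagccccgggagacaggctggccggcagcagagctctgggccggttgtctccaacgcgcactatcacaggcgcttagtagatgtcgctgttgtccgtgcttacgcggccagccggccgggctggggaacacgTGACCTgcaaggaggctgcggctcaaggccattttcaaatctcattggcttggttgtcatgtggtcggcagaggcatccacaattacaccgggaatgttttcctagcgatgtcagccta
The Hoxa2 and Hoxb1 windows each held 1 match to TGATNNAT and no AGGTCA, and the Hoxd10 window held 1 AGGTCA. Of the 24 windows that the table lists for 22 of the 38 genes, 7 (29.2%) held AGGTCA, against 16.3% of 32851 windows of all genes. TGATNNAT was in 4 (16.7%) of the Hox windows and in 8.85% of all. Each window shown held 1 match in all, so no matches overlapped, and a match is a description of the sequence and not a bound site.

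In the bases called as peak in all 4 libraries, 23.6 kb of the Hox windows, a tandem pair of AGGTCA half-sites in the same orientation, 0 to 5 bases apart and with at most 1 mismatch in the 12 positions, occurred at 2 places. They are shown with 8 bases on either side, half-sites in capitals. The site nearest Hoxb3, at chr11:96344846-96344858 on the minus strand, is an exact repeat with 1 base between the half-sites and lies 1083 bases downstream of the Hoxb3 start in an intron of Hoxb3. The site nearest Hoxa9, at chr6:52229820-52229835 on the minus strand, has 4 bases between the half-sites and 1 mismatch and lies 2458 bases upstream of the start, outside the coding transcripts of the listed genes.
Hoxb3 tandem site: tgttggtcAGGTCAgAGGTCAtcaggtag
Hoxa9 tandem site: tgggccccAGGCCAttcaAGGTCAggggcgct
Tandem pairs numbered 0.849 per 10 kb in these Hox bases and 1.79 per 10 kb over the 29.4 Mb that all 4 libraries called in the genome. Single half-sites numbered 14, or 0.594 per kb, against 0.919 per kb in the genome, so neither the pairs nor the single half-sites were denser here than in the other shared peaks. Of the 14, 4 lay in the Hoxa2 peaks and 1 in the Hoxb1 peak, and these are shown because the highest Hox level and the r4 gene are described from them.
Hoxa2 exon, 566 bases downstream of the start: ggccacaaAGGTCAgtccggag
Hoxa2 intron, 840 bases downstream: acaagaggAGGTCAgttccaac
Hoxa3 exon, 5668 bases upstream of the Hoxa2 start: cccagacgAGGTCAgcatgcct
Hoxa3 intron, 6978 bases upstream of the Hoxa2 start: ctatctagAGGTCAgaattccc
Hoxb1 exon, 616 bases downstream of the start: ctggatgaAGGTCAagagaaac
Their positions are chr6:52164262-52164267 on the minus strand, then chr6:52163988-52163993, chr6:52170497-52170502, chr6:52171807-52171812 and chr11:96366365-96366370 on the plus strand.

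Depth was 3083946 and 3580517 cut sites in WT replicates 1 and 2 and 8967987 and 10341894 in the Fam5snv/snv replicates, over 1377 to 2740 barcodes per library, and any 2 libraries shared 3 to 12 barcodes. WT replicate 1 stood apart before any comparison of Hox genes. It had 42168 called peaks against 137996 to 170993 in the other libraries, and peaks covered 4.71% of the bases nearest a member's start in it, 32.7% in WT replicate 2, 33.3% in Fam5snv/snv replicate 1 and 40.4% in Fam5snv/snv replicate 2. A cut site was deposited only where its own library had a peak. A gene at 0 thus had no cut site in the merged regions assigned to it, which is not a measured absence. In WT replicate 1, 12 of the 38 genes were at 0, and in the other libraries none was. Of these, Hoxb5 and Hoxd4 had cut sites in WT replicate 1 when each library's own peaks were assigned by their midpoints, and Hoxa13 then had none. Of the 200 Hox regions, 76 had a peak in 1 library, 35 in 2, 60 in 3 and 29 in all 4.

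**Figure D1:**
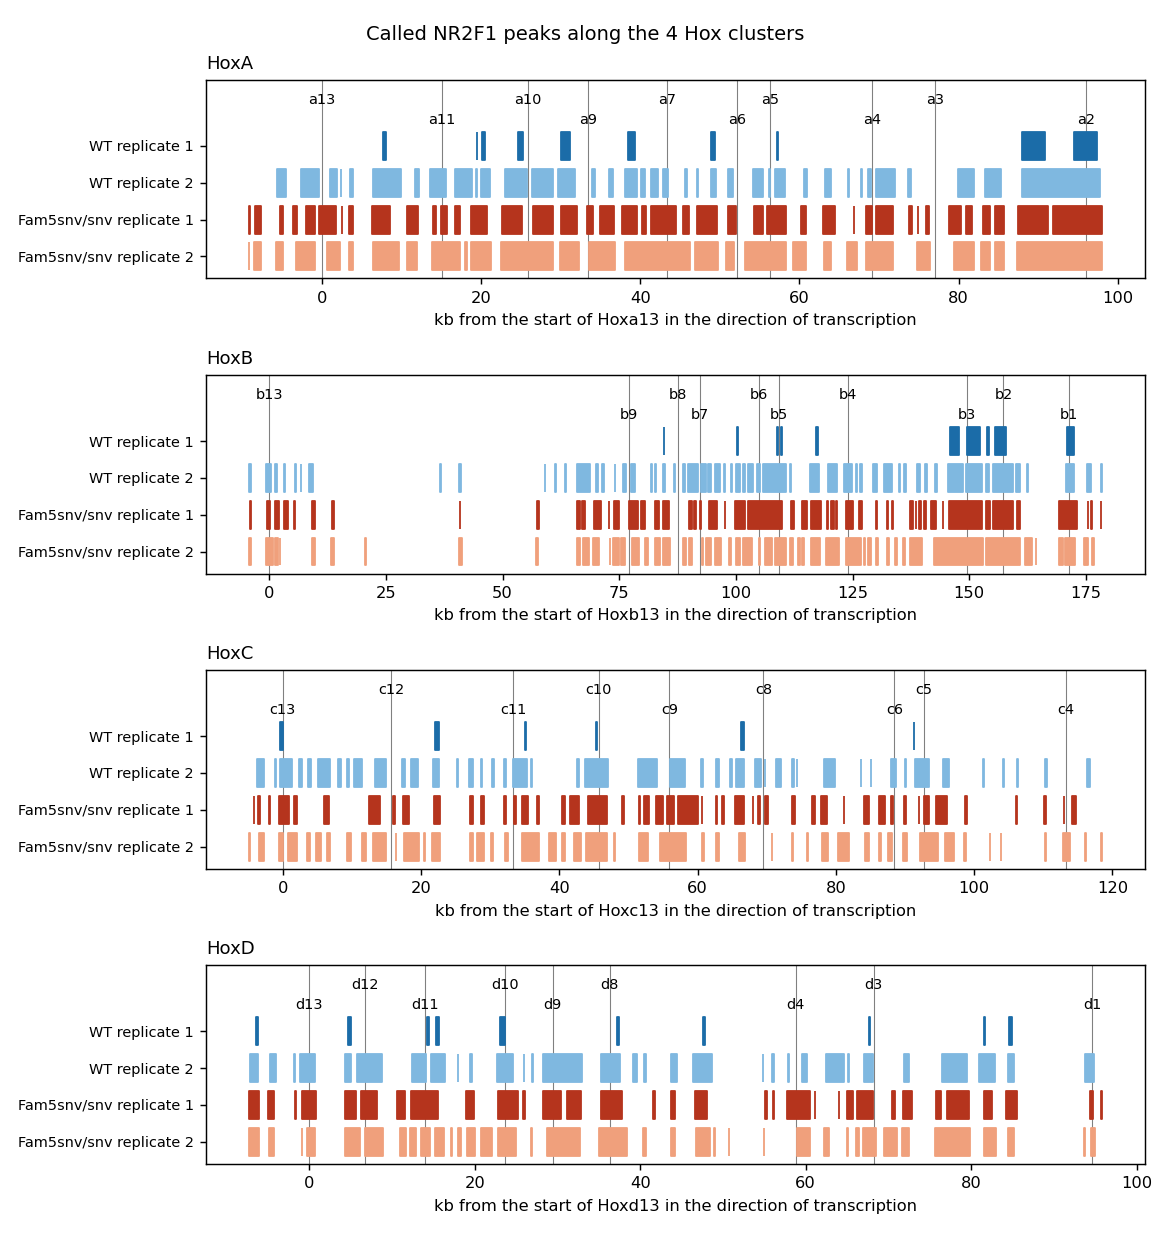
Called NR2F1 peaks along HoxA, HoxB, HoxC and HoxD, 1 row per library, on an axis of kb from the start of the group 13 gene in the direction of transcription; grey lines mark the starts of the listed genes. The blocks of WT replicate 1 cover 4.71% of the bases nearest these starts and the widest of them lie at Hoxa2, Hoxb3, Hoxb2 and Hoxb1, while the other libraries have blocks along every cluster.

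A peak lay within 1 kb of the start of 13 Hox genes in WT replicate 1, 36 in WT replicate 2, 37 in Fam5snv/snv replicate 1 and 36 in Fam5snv/snv replicate 2. Of 21877 protein-coding genes, 58.2%, 70.2%, 70.0% and 71.7% had such a peak in these libraries. Hox genes were counted by 1 start each and the protein-coding genes by any of their annotated coding starts, which can only raise the latter share. On this unlike count, Hox genes had such a peak more often in 3 libraries and less often in WT replicate 1. In all 4 libraries 13 Hox genes had a peak within 1 kb, 5 anterior, 3 central and 5 posterior, and every gene had one in at least 1 library. A peak covered the start base itself in all 4 libraries for 4 genes, Hoxa2, Hoxb1, Hoxb2 and Hoxd10. One start per gene was used, and Hoxa3 has other annotated starts. A peak covered the start used in no library for 7 genes, Hoxa3, Hoxa6, Hoxb7, Hoxb8, Hoxc8, Hoxc11 and Hoxc12. Of these, Hoxb8 had a peak within 1 kb only in WT replicate 2, and Hoxa3 and Hoxc8 in 2 libraries each.

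Among the anterior genes, Hoxa2 had the highest signal density of all 38 members in each of the 4 libraries. Density is the level of cut sites (CPM, relative to the library's cut sites in the 35770 regions of the genotype test times its TMM factor) per kb of the stretch of window nearest to a gene's start, its territory. For Hoxa2 the WT densities were 12.3 and 12.6 CPM per kb and the Fam5snv/snv densities 14.3 and 11.4, from 448, 459, 1334 and 1149 cut sites. The 4 libraries were close together and the genotypes overlapped, at 12.5 ± 0.249 CPM per kb for WT and 12.8 ± 2.05 for Fam5snv/snv (SD, n = 2 libraries each). All of this signal was in 1 merged region of 10689 bp, chr6:52162849-52173537, which covers the Hoxa2 start and runs upstream into the transcripts of Hoxa3. Of this region 2 stretches were called in all 4 libraries, chr6:52163563-52166424 over the start and chr6:52170056-52172971 upstream of it. Its summed level of 162 CPM ranked 388 of the 35770 regions tested, in the highest 1.09%. Per kb of called peak it had 18.9 CPM, a mean of the libraries, against a median of 14.04 over all tested regions.

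Hoxb3 and Hoxb2, neighbours of Hoxb1 that act in hindbrain segmentation, followed by the mean of the 4 libraries. Hoxb6 was above both in WT replicate 2 and in Fam5snv/snv replicate 1. In WT replicate 2 the posterior genes Hoxd9 (5.88 CPM per kb) and Hoxa11 (5.86) were also above both, and Hoxa10 (5.19) was above Hoxb2. In Fam5snv/snv replicate 1 Hoxa7 (6.06) was above Hoxb2. Hoxb3 had 6.70 and 5.40 CPM per kb in WT and 6.15 and 6.40 in Fam5snv/snv. Hoxb2 had 6.31 and 5.09 CPM per kb in WT and 5.92 and 5.50 in Fam5snv/snv. Hoxb3 was above Hoxb2 within each library although their ranges over libraries overlapped, while every library's Hoxa2 density was above all values of both. Hoxb1, the gene of r4 identity, had 1.95 and 1.88 CPM per kb in WT and 2.74 and 2.34 in Fam5snv/snv, rank 17 of 38 by the mean of 2.23. Its territory of 16.3 kb held 5 regions, and the region over its start had 31.9 and 24.3 CPM in WT and 43.9 and 33.3 in Fam5snv/snv and 14.9 CPM per kb of called peak. Of the 29 tested Hox regions 4 were above the median of all tested regions on that scale, and the Hox median was 11.5 CPM per kb of called peak.

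The other anterior genes had 0 to 29 cut sites in WT replicate 1, so their levels rest mainly on the other libraries. Hoxc4, the only anterior gene of HoxC in the mouse, had the lowest mean density of all members, at 0 and 0.420 CPM per kb in WT and 0.413 and 0.453 in Fam5snv/snv. Hoxd4 had 0 and 1.15 CPM per kb in WT and 0.977 and 0.706 in Fam5snv/snv. Hoxd1 had 0.346 and 1.53 CPM per kb in WT and 0.790 and 0.668 in Fam5snv/snv. Hoxc4, Hoxd4 and Hoxd1 were below their listed HoxA and HoxB paralogs in every library with cut sites at them, and the anterior class spanned means of 0.322 to 12.6 CPM per kb. Hoxb4, Hoxa3, Hoxa4 and Hoxd3 lay between, with means of 2.36, 2.01, 1.98 and 1.70 CPM per kb. Hoxa3 and Hoxa4 were at 0 in WT replicate 1, and Hoxb4 and Hoxd3 had 29 and 6 cut sites there.

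In the central groups, which pattern the neck and thorax, Hoxb6, Hoxa7 and Hoxa5 had the highest densities. Hoxb6 had 1.95 and 6.79 CPM per kb in WT and 6.65 and 4.43 in Fam5snv/snv. Hoxa7 had 2.10 and 4.72 CPM per kb in WT and 6.06 and 4.81 in Fam5snv/snv. Hoxa5 had 0 and 3.69 CPM per kb in WT and 3.29 and 4.19 in Fam5snv/snv. WT replicate 1 was the lowest library for each, and the 2 WT libraries were farther apart than the genotypes. The Hoxb6 level includes a region of 11033 bp that covers the starts of both Hoxb5 and Hoxb6, and Hoxb5 was among the lowest, at 0 and 0.221 CPM per kb in WT and 0.802 and 0.490 in Fam5snv/snv. With each library's own peaks assigned by their midpoints in place of the merged regions, the means were 3.38 CPM per kb for Hoxb6 and 1.77 for Hoxb5. Signal at this pair is therefore not assigned firmly to either gene. Hoxc6 and Hoxc5 were the other low central genes, with means of 0.826 and 1.17 CPM per kb.

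In the posterior groups, which pattern the lumbar and tail region and the limbs, Hoxa11, Hoxa9 and Hoxa10 had the highest densities. Hoxa11 had 1.27 and 5.86 CPM per kb in WT and 3.78 and 4.27 in Fam5snv/snv. Hoxa9 had 2.45 and 4.24 CPM per kb in WT and 3.34 and 4.16 in Fam5snv/snv. Hoxa10 had 1.18 and 5.19 CPM per kb in WT and 3.88 and 3.72 in Fam5snv/snv. These genes overlapped one another in every group, so no order among them is beyond the spread. Hoxb13 had the lowest posterior density, at 0 and 0.951 CPM per kb in WT and 0.491 and 0.557 in Fam5snv/snv, and Hoxb9 had 0 and 1.35 in WT and 1.15 and 1.05 in Fam5snv/snv. Hoxb9 and Hoxb13 are separated by a long stretch without a listed gene, so their territories of 43.8 and 42.9 kb were the widest of all. Hoxc11 had a mean of 1.30 CPM per kb, and the remaining posterior genes lay from 1.61 (Hoxc12) to 3.35 (Hoxd9).

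**Figure D2:**
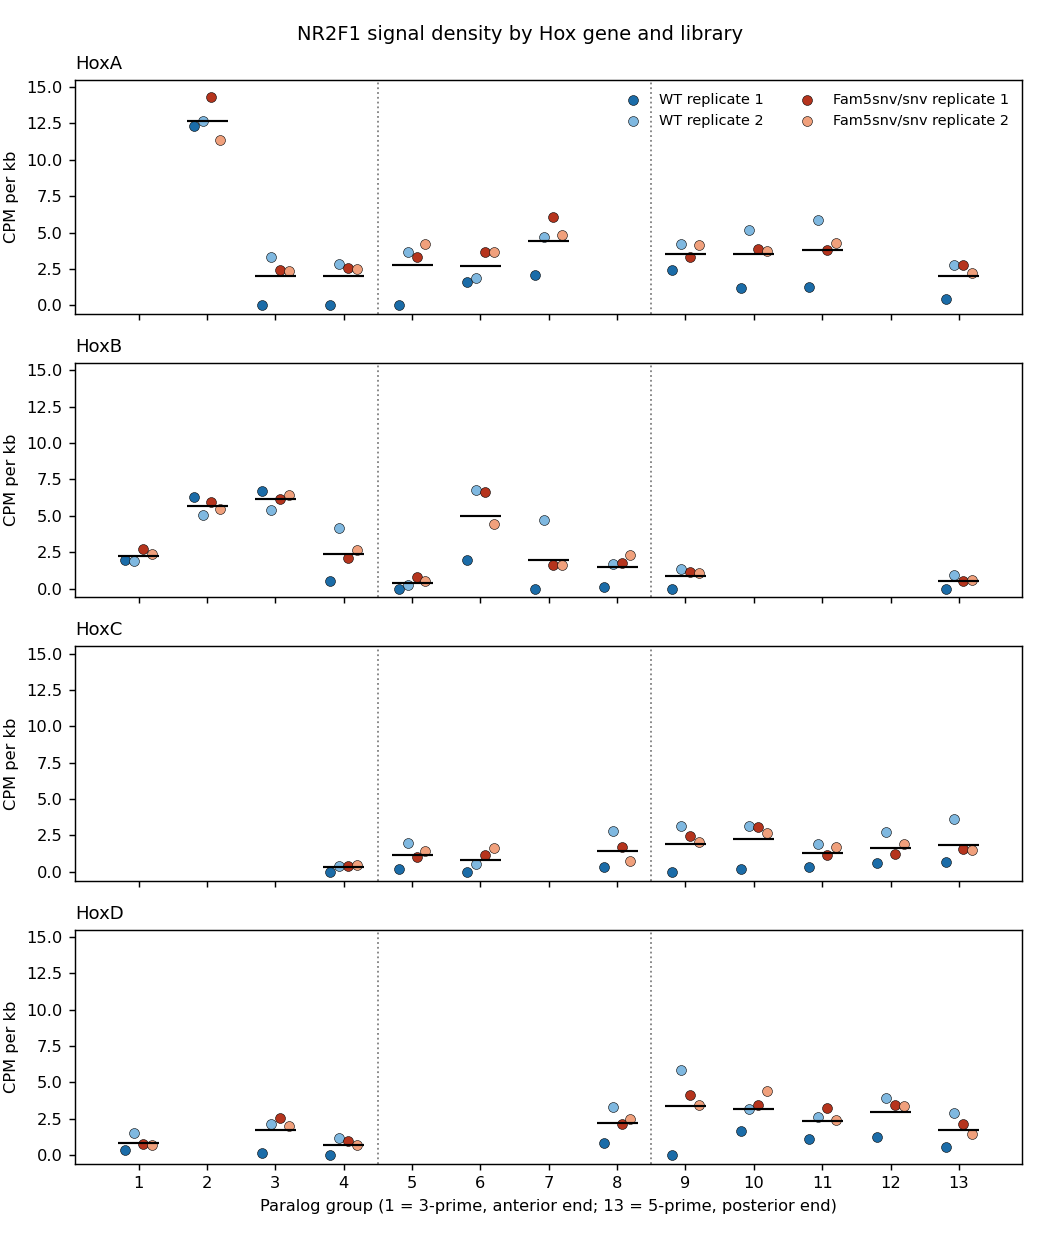
Signal density in CPM per kb of territory for the 38 Hox genes, by paralog group and cluster, with 1 point per library and a bar for the mean of the 4 libraries; dotted lines separate anterior, central and posterior groups. Hoxa2 lies between 11.4 and 14.3 CPM per kb, Hoxb2 and Hoxb3 between 5.09 and 6.70, and WT replicate 1 falls to 0 for 12 genes.

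Anterior genes together had a higher density than posterior genes in every library. The anterior class had 2.28 and 3.46 CPM per kb in WT and 3.40 and 3.10 in Fam5snv/snv. The posterior class had 0.493 and 2.66 CPM per kb in WT and 1.98 and 1.97 in Fam5snv/snv. The ratio of anterior to posterior was 4.62 and 1.30 in WT and 1.72 and 1.57 in Fam5snv/snv, so the excess was largest in the library with few peaks. On the log2 scale its mean was 1.00 ± 0.82 (SD, n = 4 libraries), and 0.60 without WT replicate 1. With 4 libraries the smallest p of an exact two-sided permutation test is 1 in 8, so the test could not pass 0.05. Per kb of called peak the log2 ratio was 0.37 and 0.29 in WT and 0.57 and 0.38 in Fam5snv/snv, with a mean of 0.40 ± 0.12. Among bases within 10 kb of a start, WT replicate 2 had a log2 ratio of 0.06 and the others 0.37 to 1.93.

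Hoxa2, Hoxb2 and Hoxb3 held the anterior excess. These genes, chosen for this after their values were seen, took 7.65% of the territory of all members and held 58.6% and 19.6% of the Hox signal in WT and 26.0% and 24.5% in Fam5snv/snv. Without them the ratio of anterior to posterior was 0.795 and 0.816 in WT and 0.891 and 0.844 in Fam5snv/snv. The pooled density of the other 8 anterior genes was thus below that of all posterior genes in each library. The genes left out were the anterior genes of highest mean density, and the posterior class kept its own highest genes. Leaving them out had to lower the ratio, so its fall is a description and not a test. Hoxb4 alone was above the posterior density in all 4 libraries, Hoxb1, Hoxa3 and Hoxa4 in 3, and Hoxd3 in both Fam5snv/snv libraries. Hoxc4, Hoxd1 and Hoxd4 were below it in every library. The clusters also differed in direction. In HoxA the ratio was 3.66 and 1.48 in WT and 1.96 and 1.62 in Fam5snv/snv. In HoxB it was 3.53 in WT replicate 2 and 4.82 and 5.004 in Fam5snv/snv, and posterior HoxB genes had no cut site in WT replicate 1. Among bases within 10 kb of a start, which leaves out most of the stretch between Hoxb9 and Hoxb13, the HoxB ratios were 1.40, 1.86 and 2.11.

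HoxC and HoxD ran the other way, with more signal at posterior genes. In HoxC the ratio of anterior to posterior was 0.146 in WT replicate 2 and 0.230 and 0.235 in Fam5snv/snv, where the anterior class is Hoxc4 alone and had no cut site in WT replicate 1. In HoxD it was 0.186 and 0.459 in WT and 0.457 and 0.397 in Fam5snv/snv. Per kb of called peak, HoxA and HoxB kept ratios above 1 in every library with a value (1.19 to 1.81), HoxC kept ratios below 1 (0.651 to 0.970), and HoxD had 0.736 to 0.936 with 1.02 in WT replicate 1. The differences in HoxC and HoxD were thus smaller per called base than per base of territory. Across the genes of a cluster, Spearman's rho between paralog group and density, a description over 9 or 10 genes that share a library's depth and peak calls, was −0.79 to −0.45 in HoxB, 0.55 to 0.76 in HoxC, 0.43 to 0.55 in HoxD and −0.16 to 0.09 in HoxA. Over all 38 genes it was −0.11 to 0.04.

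**Figure D3:**
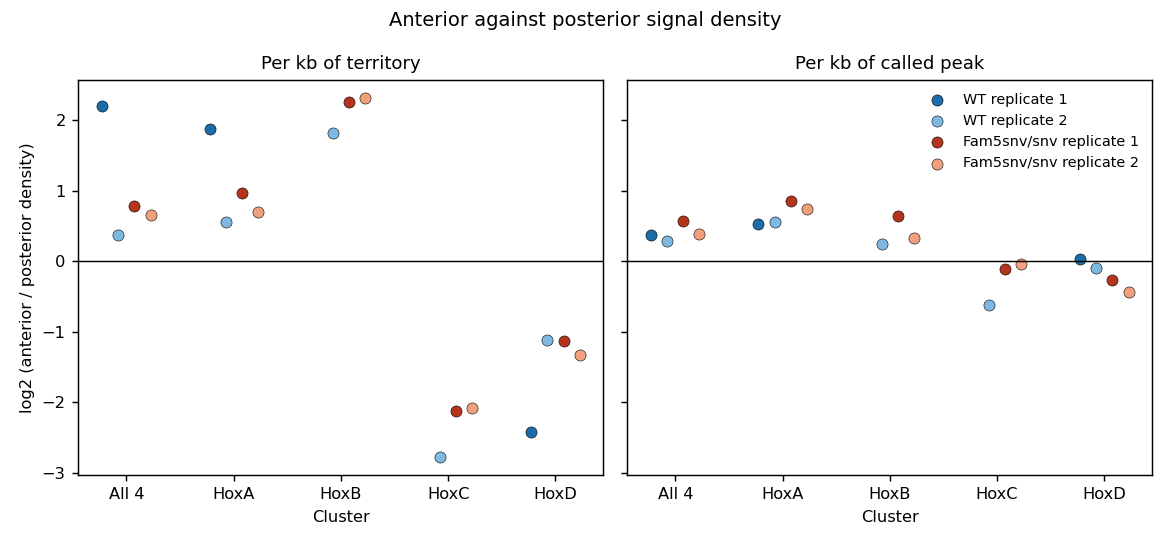
The log2 ratio of anterior to posterior signal density for all 4 clusters together and for each cluster, with 1 point per library, per kb of territory (left) and per kb of called peak (right); the line at 0 marks equal density. HoxA and HoxB lie above 0 and HoxC and HoxD below it on the left, and on the right the points of HoxB, HoxC and HoxD lie closer to 0 while those of HoxA stay between 0.53 and 0.85; WT replicate 1 has no point for HoxB and HoxC.

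The clusters as a whole differed in the same order in every library for most pairs. HoxA had 2.24 and 4.89 CPM per kb of its members' territory in WT and 4.69 and 4.33 in Fam5snv/snv, more than each other cluster in all 4 libraries. Over HoxB the log2 difference was 0.94 ± 0.12, over HoxC 1.82 ± 0.79 and over HoxD 1.32 ± 0.51 (SD, n = 4 libraries). HoxB had more than HoxC in all 4 libraries, with a log2 difference of 0.87 ± 0.88, and HoxC less than HoxD, with −0.49 ± 0.29. HoxB and HoxD were near equal outside WT replicate 1, at log2 differences of 0.00 to 0.17 in 3 libraries and 1.30 in that one. None of the 6 pairs could pass an exact two-sided permutation test of 4 libraries, whose smallest p is 1 in 8. Within 10 kb of a start HoxA exceeded HoxB by 0.39 and HoxB exceeded HoxD by 0.99. Per kb of called peak the mean log2 difference of HoxA over the others was 0.12 (HoxB), 0.38 (HoxC) and 0.36 (HoxD), and HoxC and HoxD did not keep an order across libraries.

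Single barcodes carried few cut sites in these regions. All deposited barcodes entered and no doublet caller was run. With every barcode thinned to 567 cut sites, which left out 641 barcodes of WT replicate 1 and none of the others, the Hoxa2 region had a cut site in 5.59% and 6.17% of barcodes in WT and 6.99% and 5.07% in Fam5snv/snv. Exact binomial 95% intervals, which cover counting error only, overlapped between the genotypes, at 4.61–6.71% and 4.96–7.58% for WT and 5.98–8.12% and 4.28–5.96% for Fam5snv/snv. The intervals of the 2 Fam5snv/snv libraries did not overlap each other. Unthinned, 198 of 2572 and 179 of 1377 WT barcodes had a cut site there, and 20.5% and 15.9% of Fam5snv/snv barcodes did, where the median barcode held 879 and 1867 (WT) and 2694 and 2984 (Fam5snv/snv) cut sites. The thinned share for the Hoxb1 region was 1.09% and 0.944% in WT and 1.58% and 1.42% in Fam5snv/snv. Tested anterior regions together had a cut site in 12.8% to 14.8% of thinned barcodes over the 4 libraries, and tested posterior regions, 13 against 8 anterior ones, in 4.87% to 10.5%.

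Between genotypes no Hox region differed with edgeR's quasi-likelihood test and Benjamini-Hochberg adjustment over 35770 regions that had a peak in every library. In that test 0% of all regions were called, and 29 were Hox regions, from 26 of the 38 genes. Of these, 9 were in HoxA, 6 in HoxB, 5 in HoxC and 9 in HoxD. DESeq2 called 1.02% of all regions higher and 0.542% lower in Fam5snv/snv and no Hox region. At an unadjusted p under 0.05, edgeR had 1 Hox region higher, against 5.29% of all regions, and 0 Hox regions lower, against 3.37%. In 6 Hox regions both Fam5snv/snv libraries were above both WT libraries, where 23.2% of all regions were, and in 2 both were below, where 21.4% of all were. The median log2 fold change was 0.26 over the Hox regions and 0.02 over all.

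None of the regions over the starts of Hoxa2, Hoxb2 and Hoxb1 passed the test. The Hoxa2 region had 157 and 161 CPM in WT and 182 and 145 in Fam5snv/snv, a log2 fold change of 0.04 (SE 0.22, 95% interval −0.48 to 0.56, edgeR adjusted p = 0.964). The Hoxb2 region, chr11:96347836-96355126, had 69.4 and 55.6 CPM in WT and 65.1 and 53.5 in Fam5snv/snv, a log2 fold change of −0.08 (95% interval −0.60 to 0.45). At both genes the libraries of the genotypes interleaved, and a change within these intervals could not be told from the spread between libraries. The Hoxb1 region, chr11:96363483-96367459, was higher in both Fam5snv/snv libraries than in both WT libraries, with a log2 fold change of 0.46 (SE 0.27, 95% interval −0.18 to 1.09, edgeR adjusted p = 0.624). Leaving out 1 library moved it to 0.24 (without Fam5snv/snv replicate 1), 0.27 (without WT replicate 2), 0.65 (without Fam5snv/snv replicate 2) or 0.66 (without WT replicate 1). Called length was also greater there in Fam5snv/snv, at 3826 and 3037 bp against 1384 and 1714 bp in WT, and its part in the difference was not tested.

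The Hox regions of smallest unadjusted p that were higher in Fam5snv/snv were those nearest Hoxa6, Hoxa7 and, again, Hoxb1. The Hoxa6 region, chr6:52211071-52214006, had 10.2 and 6.33 CPM in WT and 18.6 and 17.8 in Fam5snv/snv, a log2 fold change of 1.14 (SE 0.42, edgeR unadjusted p = 0.0288, adjusted p = 0.573). It covers none of the starts used here, although the RefSeq promoter window of another Hoxa3 start, chr6:52213018-52213317, lies inside it, and its called length was 473 and 729 bp in WT and 2428 and 2936 bp in Fam5snv/snv. The Hoxa7 region, chr6:52214638-52223169, had 19.6 and 44.0 CPM in WT and 56.5 and 44.9 in Fam5snv/snv, a log2 fold change of 0.67 (SE 0.37, adjusted p = 0.609 with edgeR). Over the 29 regions the mean called length in Fam5snv/snv was 1.24 to 5.28 times the mean in WT, also in the regions whose level was lower. The short peaks of WT replicate 1 enter that WT mean. In some regions, though not in most, WT replicate 2 had a greater called length than both Fam5snv/snv libraries. At the region chr2:74749313-74751311, nearest Hoxd1, it was 148 and 1930 bp in WT and 1078 and 1490 bp in Fam5snv/snv. Without WT replicate 2 the Hoxa7 region was called higher (1.37, edgeR adjusted p = 0.00238), as 11.4% of all regions were, and without WT replicate 1 it was 0.20.

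The regions of smallest unadjusted p that were lower in Fam5snv/snv were nearest Hoxa9, Hoxc12 and Hoxd1. The Hoxa9 region, chr6:52228529-52231183, which holds the tandem site shown above, had 21.4 and 31.7 CPM in WT and 14.4 and 19.7 in Fam5snv/snv, a log2 fold change of −0.64 (SE 0.34, edgeR adjusted p = 0.604). The Hoxc12 region, chr15:102942725-102943838, had 10.5 and 11.96 CPM in WT and 6.97 and 8.60 in Fam5snv/snv, a log2 fold change of −0.53 (SE 0.47). In these regions the WT libraries were above the Fam5snv/snv libraries. The Hoxd1 region, chr2:74749313-74751311, 12668 bases from the start, had 2.80 and 19.0 CPM in WT and 5.47 and 6.20 in Fam5snv/snv, so the WT libraries lay on both sides of the others and the log2 fold change of −0.90 had an SE of 0.84. Without WT replicate 1, where edgeR called 1.17% of all regions lower, this region was called lower (−1.71, edgeR adjusted p = 0.0377), and without WT replicate 2 it was 1.05 and not called.

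**Figure D4:**
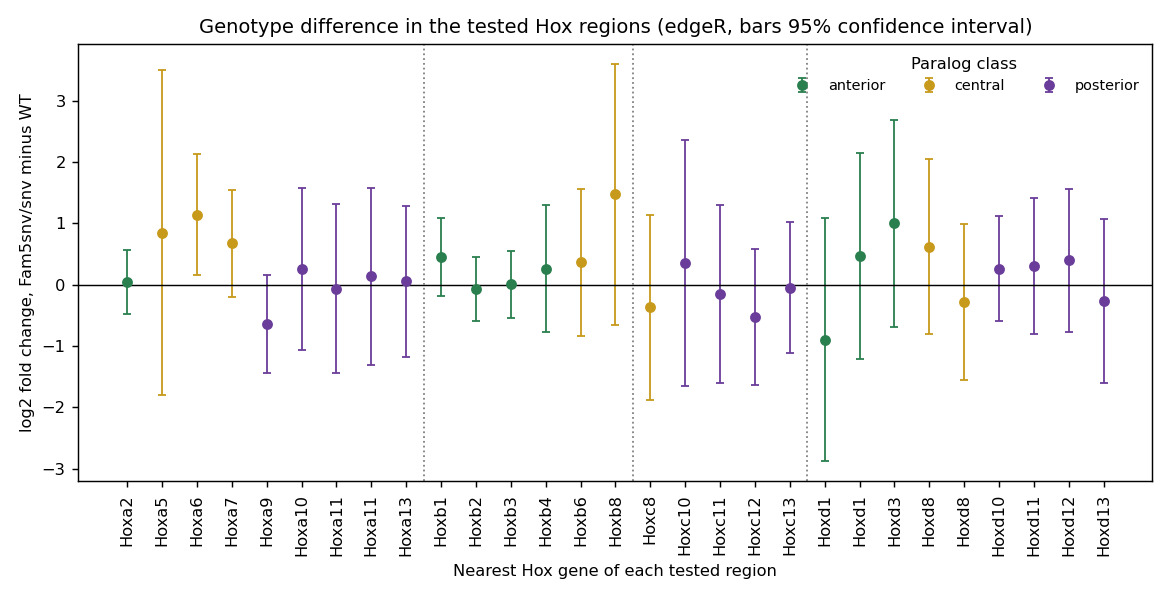
Log2 fold change of Fam5snv/snv minus WT, with its 95% confidence interval from edgeR, for the 29 tested Hox regions in order of cluster and paralog group and coloured by paralog class; each region is named by its nearest Hox gene. The anterior regions of Hoxa2, Hoxb2 and Hoxb3 have narrow intervals around 0, and only the Hoxa6 interval, 0.16 to 2.12, leaves out 0 before adjustment.

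By class, 6 of 8 anterior, 6 of 8 central and 7 of 13 posterior regions had a fold change above 0, with medians of 0.15, 0.65 and 0.06 on the log2 scale. Which WT library entered the fit decided these values. Without WT replicate 1 the median over the 29 regions was −0.19 and 1 region was called lower, where 1.17% of all regions were. Without WT replicate 2 the median was 0.88 and 11 of the 29 were called higher, where 11.4% of all regions were, those nearest Hoxa5, Hoxa7, Hoxa10, Hoxb6, Hoxb8, Hoxc10, Hoxd3, Hoxd8 and Hoxd12 and both of Hoxa11. The summed signal of the tested regions of HoxA was 242 and 402 CPM in WT and 381 and 347 in Fam5snv/snv, and the log2 differences between genotypes were 0.22 for HoxA, 0.15 for HoxB, 0.13 for HoxC and 0.38 for HoxD. WT libraries differed from each other by more than the genotypes in HoxA, HoxC and HoxD. Per kb of called peak all 4 differences turned negative, from −1.11 to −0.82. The log2 ratio of anterior to posterior density was 1.29 in WT and 0.72 in Fam5snv/snv, a difference of −0.58 with a spread within genotypes of 0.92 (pooled SD), and 0.34 without WT replicate 1. An exact two-sided permutation test of 2 against 2 libraries has a smallest p of 1 in 3, so neither the summed signal nor this ratio could pass it.

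Genes that act with or upstream of the Hox genes were given by counts from their promoter regions. Of 20 such genes, among them the cofactors Meis1 and Pknox1, the segment gene Egr2, the caudal genes and Polycomb and Trithorax members, 17 had a tested region, and none passed edgeR's adjusted threshold in either direction (lowest adjusted p = 0.573). Their log2 fold changes were above 0 in 4 and below 0 in 13, from −0.64 to 0.64, and the Polycomb members Ezh2 (−0.64) and Eed (−0.47) were among those lower at an unadjusted edgeR p under 0.05. Motor neuron genes had tested promoter regions for 5 of 6 markers, with 29.4 CPM at Isl1, and 7 of 9 markers of progenitors and other cells had one too, with log2 fold changes from −1.33 (Prrx1, where Twist1, the other mesenchyme marker, had 0.13) to 1.03 (Erg, endothelium) and none past the adjusted threshold. The assay measures NR2F1 binding and not expression, so these levels do not identify the cells, and the part of other cells in the Hox values was not tested. Cdx2, Cdx4 and Evx1, and the markers Mnx1, Gata1 and Kdr, had no tested promoter region.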

How the data were processed

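NR2F1 scCUT&Tag was profiled in 4 libraries, 2 per genotype. The authors deposited, for each library, a matrix of counts (Tn5 cut sites per peak and barcode) and a list of peaks without heights, made with Cell Ranger ATAC on mm10 per the submitters' processing notes, with peaks called in each library separately. Peaks were merged (1 bp), and counts were summed over barcodes and normalised by TMM on the tested regions. One start for each of the 38 Hox genes was taken from GENCODE M21, and densities of clusters were per kb of member territory, not of whole windows. The members and gene lists were chosen with earlier results of these data known. Another gene in the HoxA window and some single genes of the lists are not reported here.

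The genotype test was edgeR's quasi-likelihood test (edgeR 4.0.16, R 4.3.3) without a replicate block over the 35770 merged regions called in all 4 libraries that reached a minimum of 10 cut sites in 2 or more of them, with Benjamini-Hochberg adjustment at 0.05. The fit left 2 residual degrees of freedom and a common biological coefficient of variation of 0.305. It was tested on simulated data. Replicates were libraries of pooled embryos, so that p-values measure the spread between pools, and no animal-level spread is known. Exact intervals cover counting error only. Alternatives were DESeq2 1.42.0, other scalings and filters, other anterior groups and denominators, and leaving out each library; the 10 kb limit around starts was added after seeing the data. Named were the r4 genes Hoxb1, Hoxb2 and Hoxa2, the 3 genes of highest and of lowest mean density per class, genes without a peak on the start, and the 3 tested regions of smallest p in each direction. Python 3.11.15, pandas 2.3.3, numpy 2.4.6, scipy 1.17.1 and matplotlib 3.10.9 were used.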

Additional observations from a re-analysis of the deposited data

How the results depend on the processing

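Which of the WT libraries entered moved most genotype values, and the cause was not tested. edgeR called 0 regions in either direction, DESeq2 366 higher and 194 lower, and edgeR 14 higher and 4 lower among the regions that peaks covered to at least 50% in each library. Leaving out each library gave 0 to 4094 regions higher and 0 to 2221 lower over the genome, and 0 to 11 Hox regions higher and 0 to 1 lower. With 3 libraries the genotype with 1 library was assumed to vary like the other.

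Per kb of called peak the genotype difference of the anterior to posterior log2 ratio turned to 0.15, and the summed signal to −0.91 (HoxA), −0.82 (HoxB), −1.11 (HoxC) and −0.96 (HoxD). Leaving out each library gave −1.49 to 0.34 for the ratio, −0.15 to 0.58 for HoxA, 0.018 to 0.27 for HoxB (lowest without Fam5snv/snv replicate 1), −0.62 to 0.88 for HoxC and −0.32 to 1.07 for HoxD. The sign of the anterior to posterior log2 ratio itself and of the 6 cluster pairs held in their mean over libraries under each processing alternative. For some pairs that mean was very small. HoxC over HoxD was −0.017 per kb of called peak, with libraries of both signs, and HoxB over HoxD was 0.074 without WT replicate 1. The order of these pairs was thus not firm. The mean log2 ratio of anterior to posterior was 0.26 without HoxB and 0.96 to 1.56 without each other cluster. The log2 ratio of anterior to posterior turned negative in all 4 libraries when Hoxa2, Hoxb2 and Hoxb3, the anterior genes of highest mean density, were left out. The posterior class was kept whole there, so the ratio had to fall.

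Scaling by barcodes moved the median log2 fold change of all regions to 0.97, and with it Hoxb2 to 0.93, Hoxa9 to 0.22 and Hoxc12 to 0.39. Leaving out each library gave −0.23 to 0.085 for Hoxb2, −0.13 to 0.20 for Hoxa2 and −1.71 to 1.05 for Hoxd1, 0.24 to 0.66 for Hoxb1, −0.90 to −0.32 for Hoxa9 (the latter without WT replicate 2) and 0.20 to 1.37 for Hoxa7, and Hoxa7 passed (1.37, edgeR adjusted p = 0.00238) without WT replicate 2. The replicate block called 0 regions, as without it, and the Hox median was 0.32. Same-numbered libraries correlated at 0.029 in their deviations from the genotype means. With 2 libraries per genotype, the −0.029 of differently numbered ones is the same value with its sign turned and no second check. The numbers were not shown to pair the libraries.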
